A study of Mus musculus with 8 samples.

Results

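The genes described here are 10 members of the mTORC1 (mechanistic Target Of Rapamycin Complex 1) pathway and of the amino acid sensing that feeds into it, measured as mRNA in mouse liver. They were taken as a list of names, by a rule that used no measured value although earlier results of these data were known, and all 10 were among the 11784 genes listed in the deposited table. Liver poly(A) RNA came from 8 male C57BL/6J mice that received amino acid defined diets from 9 weeks of age for 4 months, and livers were collected after an overnight fast of about 16 hours. The 4 Control mice (F129, F2212, F7111 and F2110) ate TD.140711, and the 4 Low AA mice (H1126, H828, H817 and H1315) ate TD.140712, in which a smaller share of calories comes from amino acids and a larger share from carbohydrate. The mice carried no engineered allele, all were fasted, and no fed liver was measured, so every value below is that of a fasted wild-type liver. The comparison asks whether a diet low in amino acids was accompanied by a different amount of mRNA for the machinery that senses amino acids.

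mTORC1 is a protein kinase complex that promotes protein synthesis and restrains autophagy when amino acids and growth factors are plentiful. Amino acids act through the Rag GTPases at the lysosome, insulin acts through the TSC complex and the small GTPase Rheb, and in liver the activity of the complex is low in the fasted state and high after a meal. The pathway is switched mostly by binding, phosphorylation and localisation of its proteins. Levels of mRNA therefore give the supply of the components, and neither protein levels nor kinase activity were measured here.

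The values are scaled read counts, whole numbers that summed to between 27876664 and 30799385 per mouse, with medians over genes between 433.0 and 449.0. They are not raw counts, and the depth of the libraries is not known from them. All 6 hepatocyte markers examined were high in every mouse, with summed values of 2184652 to 2607441 on the Control diet and 2417214 to 2645255 on the Low AA diet. Control mouse F2212 stood apart, with a value of 36587 for Cela1, the only pancreas marker listed out of 5, against at most 288 in the other 7 mice. For each member whose log2 fold change moved by over 1.5 times or turned in sign without F2212, the value without it is given too. The summed values of the other marker lists below overlapped between the diets. They ran for the 4 Kupffer cell markers from 5743 to 8777 on Control and from 6019 to 8928 on Low AA, for the 4 endothelial markers from 3870 to 5512 and from 4684 to 5229, and for the 4 stellate cell markers from 7849 to 10129 and from 8137 to 10232. The 3 cholangiocyte markers listed out of 4 ran from 141 to 234 and from 71 to 145, and the 3 blood markers listed out of 4 from 6414 to 22257 and from 7713 to 12216. No marker passed an adjusted p under 0.05, and at an unadjusted p under 0.05 (limma) were the cholangiocyte markers Sox9 and Krt19, with log2 fold changes of -1.05 and -0.87, the blood markers Hba-a1 and Alas2, with -0.72 and -0.49, and the Kupffer cell marker Adgre1, with 0.29. Hba-a1 has a near-identical copy with which reads may be shared, and the values of Alas2 did not overlap between the diets. F2212 had the highest sum of blood markers, 22257 against at most 15375 in the other 7 mice. Without F2212 the log2 fold change of Hba-a1 was -0.52, no longer at an unadjusted p under 0.05 (limma). That of Alas2 was -0.36, still under it. The part of these cells in the differences of the members was not tested. In a whole liver, fewer cells of a type and less RNA per cell cannot be told apart.

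None of the 10 members passed an adjusted p under 0.05 between the diets (limma on log2(value + 1), Benjamini-Hochberg adjustment over all genes), where 0.399% of all 11784 genes did. An unadjusted p under 0.05 was found for 2 members, Ddit4 with higher and Eif4ebp1 with lower values on the Low AA diet, which is 20% of the members against 11.8% of all genes. The values of the 4 Low AA mice and the 4 Control mice did not overlap for 1 member, Ddit4, where 6.81% of all genes had no overlap. Signs were split evenly, with 5 members higher and 5 lower on Low AA, and the median log2 fold change of the members was 0.01, against 0.00 over all genes. The median size of the log2 fold change, without its sign, was 0.137 for the members and 0.135 for all genes. In size and in number past the test the members thus lay close to the table as a whole.

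**Figure D1:**
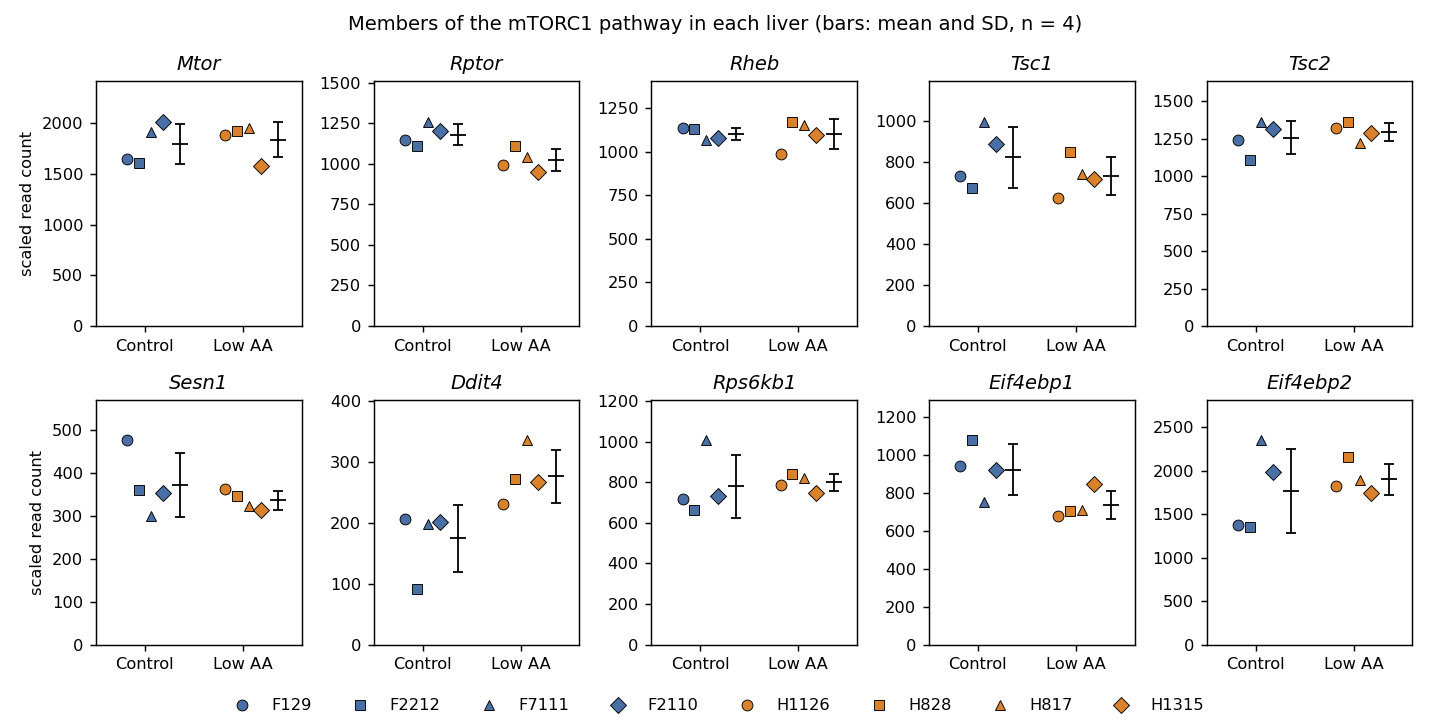
Scaled read counts of the 10 members (vertical axes, from 0) in each of the 4 Control and 4 Low AA livers, 1 point per mouse, with the mean and SD of each diet beside the points (n = 4). Ddit4 is the only panel in which the diets do not overlap, with Low AA values from 231 to 335 and Control values from 91 to 206.

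Ddit4 encodes REDD1, a stress-induced protein that restrains mTORC1 by way of the TSC complex, and its mRNA is known to be induced by glucocorticoids, fasting and amino acid stress. The gene lies on chr10:59949669-59951834, on the minus strand (GRCm38). It had the largest difference of the 10 members, larger in size than that of 97.0% of all genes. Scaled read counts were 206, 91, 198 and 201 in Control mice F129, F2212, F7111 and F2110. In Low AA mice H1126, H828, H817 and H1315 they were 231, 271, 335 and 267. Each Low AA value was above each Control value, 3 of the Control mice were nearly equal, and F2212 lay far below them. Means were 174 ± 55.4 on Control and 276 ± 43.3 on Low AA (SD, n = 4 each), which gives a log2 fold change of 0.72 with a 95% interval of 0.16 to 1.29, or 1.65-fold with an interval of 1.12 to 2.44. The difference did not pass after adjustment over all genes (adjusted p = 0.281 in limma, unadjusted p = 0.0166). The exact two-sided permutation test on this gene alone gave p = 0.0286, the smallest that 4 mice against 4 allow. Any gene without overlap gets this value, so it adds nothing to the lack of overlap. Without F2212 the log2 fold change was 0.44, from 0.72 with it, with an unadjusted p of 0.0118 and a limma adjusted p of 0.234 (7 mice, moderated across all genes).

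The stretch of promoter just before the annotated start of Ddit4, the member with non-overlapping diets, is shown beside the same stretch of Mtor, a member with a difference near 0. RefSeq promoter windows (GRCm38.p6) were found for 9 of the 10 members, all but Eif4ebp1, and each stretch holds the 186 bases from 250 to 65 bases before the RefSeq start, read along the gene and ending where the GENCODE exon of Ddit4 begins. Capitals mark CCAAT boxes (CCAAT) and GC boxes (GGGCGG) on either strand, which do not overlap each other. The Ddit4 stretch is chr10:59951835-59952020 on the minus strand, and the Mtor stretch is chr4:148448332-148448517 on the plus strand.
Ddit4: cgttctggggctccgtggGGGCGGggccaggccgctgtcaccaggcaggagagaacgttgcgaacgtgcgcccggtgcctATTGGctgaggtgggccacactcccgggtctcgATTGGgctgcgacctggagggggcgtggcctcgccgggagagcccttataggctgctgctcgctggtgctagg
Mtor: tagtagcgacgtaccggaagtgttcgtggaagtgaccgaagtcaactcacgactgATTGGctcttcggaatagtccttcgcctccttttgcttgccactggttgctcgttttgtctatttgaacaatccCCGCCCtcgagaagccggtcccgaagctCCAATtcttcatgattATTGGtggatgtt
The Ddit4 stretch held 2 CCAAT boxes and 1 GC box, and the Mtor stretch held 3 and 1. Over all 32851 RefSeq windows cut the same way, 26.0% held a CCAAT box and 22.0% a GC box. Among the 10 windows of the 9 members, Sesn1 having 2, there were 4 with a CCAAT box and 4 with a GC box. The letters TATAAA, found in 8.58% of all windows, and TGATGNAA, the element through which ATF4 acts with C/EBP proteins, found in 2.47%, were in none of the member windows. The E-box CACGTG, in 3.90% of all windows, was in that of Rheb alone among the members. Both strands were searched for each motif, and a match or its absence is a description of these letters in this window only.

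**Figure D2:**
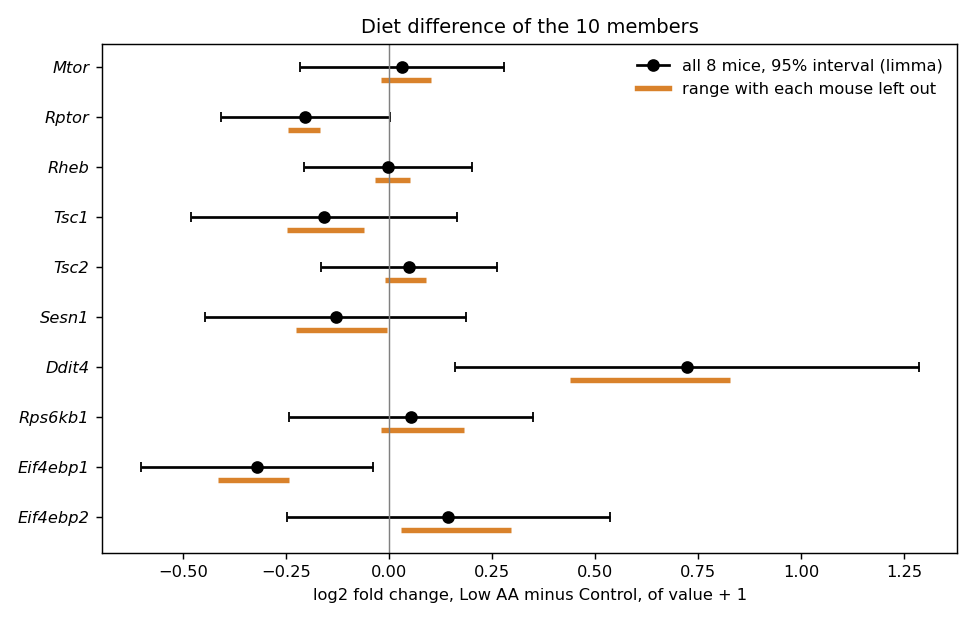
Log2 fold change of each member, Low AA minus Control, of value + 1 (horizontal axis), with the 95% interval from limma in black and, in orange, the range when each of the 8 mice is left out in turn. Intervals lie apart from 0 for Ddit4 (0.16 to 1.29) and Eif4ebp1 (-0.60 to -0.04) and cross it for the other 8 members.

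Eif4ebp1 and Eif4ebp2 encode 4E-BP1 and 4E-BP2, inhibitors that hold the cap-binding protein eIF4E until mTORC1 phosphorylates them. Eif4ebp1 (chr8:27260329-27276674, plus strand) had scaled read counts of 941, 1077, 753 and 922 in F129, F2212, F7111 and F2110. On the Low AA diet they were 678, 706, 712 and 846 in H1126, H828, H817 and H1315. The lowest 3 of the 8 values were all from Low AA mice, and the overlap came from Control mouse F7111 and Low AA mouse H1315. Means were 923 ± 133 on Control and 736 ± 75.1 on Low AA (SD, n = 4 each), which gives a log2 fold change of -0.32 with a 95% interval of -0.60 to -0.04. This did not pass after adjustment over all genes (adjusted p = 0.347 in limma, unadjusted p = 0.0289). The exact two-sided permutation test gave p = 0.0571. Without F2212 the log2 fold change was -0.24, with an unadjusted limma p of 0.0771.

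Eif4ebp2 (chr10:61428491-61452661, minus strand) had the widest spread among the Control mice after Ddit4, with a highest value 1.74 times the lowest. Its scaled read counts were 1380, 1346, 2348 and 1983 in F129, F2212, F7111 and F2110, and 1819, 2152, 1887 and 1746 in H1126, H828, H817 and H1315. All 4 Low AA values lay within the range of the Control values. On the log2 scale the fold change was 0.14, with a 95% interval of -0.25 to 0.54 (adjusted p = 0.820, limma), and 0.03 without F2212. Both inhibitors act on eIF4E, whose own gene Eif4e had scaled read counts of 1291 ± 128 on Control and 1434 ± 49.1 on Low AA (SD, n = 4 each). The diets did not overlap for Eif4e, by a margin of 1363 in H1315 against 1360 in F7111, and its log2 fold change of 0.16 did not pass (adjusted p = 0.603, limma) and was 0.08 without F2212.

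The ratio of one gene to another within a mouse does not depend on how the mice were scaled, and 4 such ratios were compared, 3 between members and 1 of a member to Eif4e. A trend with exon length, described below, does not cancel between genes of unlike length, and the ratios were not corrected for it. Eif4ebp1 to Eif4e was 0.693, 0.979, 0.554 and 0.685 in Control mice F129, F2212, F7111 and F2110. In Low AA mice H1126, H828, H817 and H1315 it was 0.472, 0.480, 0.487 and 0.621. The first 3 of these Low AA mice lay below every Control mouse and H1315 lay among them, and the difference on the log2 scale was -0.48 (exact permutation test, two-sided, p = 0.0571, adjusted over the 4 ratios 0.114). Mtor to Rptor differed by 0.23, with Control ratios of 1.44 to 1.67 and Low AA ratios of 1.67 to 1.89 (exact permutation test, two-sided, p = 0.0571, adjusted 0.114). Eif4ebp1 to Eif4ebp2 differed by -0.47 and Tsc1 to Tsc2 by -0.21 (exact permutation tests, two-sided, p = 0.257 and 0.171, adjusted 0.257 and 0.229). None of the 4 ratios passed after adjustment. Without F2212 the differences were -0.32 for Eif4ebp1 to Eif4e, 0.21 for Mtor to Rptor, -0.27 for Eif4ebp1 to Eif4ebp2 and -0.24 for Tsc1 to Tsc2.

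Rptor encodes Raptor, the scaffold that brings substrates to the complex, and Mtor encodes the kinase itself. Rptor (chr11:119602905-119899576, plus strand) had scaled read counts of 1144, 1110, 1258 and 1202 in F129, F2212, F7111 and F2110, and 994, 1112, 1041 and 948 in H1126, H828, H817 and H1315. A single pair of values crossed between the diets, 1112 in H828 and 1110 in F2212. Between the diets the log2 fold change was -0.20 with a 95% interval of -0.41 to 0.00 (adjusted p = 0.427 in limma, unadjusted p = 0.0516). The exact two-sided permutation test gave p = 0.0571. Without F2212 the log2 fold change was -0.23, with an unadjusted limma p of 0.0401. A noncoding gene on the opposite strand, Rptoros, shares 1.27% of the exon bases of Rptor.

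Mtor (chr4:148448611-148557683, plus strand) had scaled read counts of 1651, 1611, 1916 and 2013 in F129, F2212, F7111 and F2110. They were 1880, 1923, 1956 and 1581 in H1126, H828, H817 and H1315, so that both the highest value was a Control one and the lowest a Low AA one. The log2 fold change was 0.03 with a 95% interval of -0.22 to 0.28, or 0.860-fold to 1.21-fold (adjusted p = 0.948, limma), and with single mice left out it ran from -0.02, without F2212, to 0.10. Of the other mTORC1 subunits, Mlst8, which binds the kinase domain, had 190 ± 31.2 on Control and 210 ± 26.1 on Low AA (SD, n = 4 each), which gives a log2 fold change of 0.15 (adjusted p = 0.772, limma). None of the 5 mTORC1 subunits, and none of the 4 subunits particular to mTORC2, reached an unadjusted limma p under 0.05, where 11.8% of all genes did. With so few genes, a difference from that share cannot be read from these counts.

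Rheb, the small GTPase that activates mTORC1 at the lysosome, had the smallest fold change of the 10 members. Its gene (chr5:24802823-24842624, minus strand) had scaled read counts of 1132, 1130, 1066 and 1075 in F129, F2212, F7111 and F2110, and 983, 1170, 1154 and 1095 in H1126, H828, H817 and H1315. Means were 1101 ± 35.1 on Control and 1101 ± 84.7 on Low AA (SD, n = 4 each). The log2 fold change was -0.00 with a 95% interval of -0.21 to 0.20, which spans 0.866-fold to 1.15-fold (adjusted p = 0.995, limma). A larger difference in either direction lies outside that interval, and without F2212 the log2 fold change was 0.01.

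Tsc1 and Tsc2 encode the complex that switches Rheb off. Tsc1 (chr2:28641228-28691167, plus strand) had scaled read counts of 732, 674, 997 and 891 in F129, F2212, F7111 and F2110, and 625, 849, 743 and 717 in H1126, H828, H817 and H1315. Control mice F7111 and F2110 were the highest of the 8, and the log2 fold change was -0.16 with a 95% interval of -0.48 to 0.16 (adjusted p = 0.748, limma), and -0.25 without F2212. Tsc2 (chr17:24595816-24632630, minus strand) ran from 1107 to 1362 on Control and from 1219 to 1362 on Low AA, with medians of 1279 and 1303. Its log2 fold change was 0.05 with a 95% interval of -0.17 to 0.26 (adjusted p = 0.898, limma), and -0.01 without F2212. Tsc2 shares 10.9% of its exon bases with Pkd1 on the opposite strand, and whether the counting used the strand of these stranded libraries is not stated, so reads of the shared part may belong to either gene.

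Sesn1 encodes Sestrin1, which binds the GATOR2 complex and releases it when leucine is bound. The gene (chr10:41809935-41908424, plus strand) had scaled read counts of 475, 359, 300 and 352 in F129, F2212, F7111 and F2110, and 362, 345, 322 and 312 in H1126, H828, H817 and H1315. F129 alone was above 362, and every Low AA value lay within the Control range. For Sesn1 the log2 fold change was -0.13 with a 95% interval of -0.45 to 0.19 (adjusted p = 0.794, limma), and without F129 it was -0.01. Its relative Sesn2, a target of ATF4 as well as a leucine sensor, had 314 ± 125 on Control and 305 ± 118 on Low AA (SD, n = 4 each), which gives a log2 fold change of -0.06 with a 95% interval of -0.89 to 0.78 (adjusted p = 0.975, limma), and -0.35 without F2212. Between the lowest and highest of the 8 mice Sesn2 ran from 137 in H817 to 465 in F129. None of the 11 amino acid sensors and folliculin complex genes, all of them listed, reached an unadjusted limma p under 0.05, where 11.8% of all genes did. With so few genes, a difference from that share cannot be read from this count.

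Rps6kb1 encodes S6 kinase 1, a direct mTORC1 substrate that phosphorylates ribosomal protein S6. The gene (chr11:86498871-86544805, minus strand) had scaled read counts of 720, 662, 1008 and 732 in F129, F2212, F7111 and F2110, and 786, 843, 822 and 749 in H1126, H828, H817 and H1315. F7111 was the highest of the 8, and the other 3 Control mice lay below all 4 Low AA mice. For Rps6kb1 it was 0.05 on the log2 scale, with a 95% interval of -0.24 to 0.35 (adjusted p = 0.922, limma). Leaving out F7111 gave 0.18, still without passing (adjusted p = 0.433, limma), and leaving out F2212 gave -0.02. An opposite-strand gene, Rnft1, shares 1.93% of the exon bases of Rps6kb1.

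Of the 6 genes of the S6 kinase arm, 2 had diets that did not overlap, Eef2k and Rps6, which is 33.3% against 6.81% of all genes. This was the highest share among the 10 arms of the pathway that were examined. Such genes were 2 of 9 among the stress, energy and growth factor inputs and 1 of 6 in the 4E-BP and cap-binding arm. The remaining arms had none, and over all 69 listed genes of the pathway the share was 7.25%. With so few genes in each arm, a difference from the share of all genes cannot be read from these counts. Eef2k, the kinase that slows translation elongation and is inhibited by S6 kinase, had scaled read counts of 139, 137, 117 and 126 in F129, F2212, F7111 and F2110, and 91, 102, 61 and 75 in H1126, H828, H817 and H1315. Its log2 fold change was -0.67 with a 95% interval of -1.07 to -0.28, the largest in size in the pathway after Ddit4 (adjusted p = 0.148 in limma, unadjusted p = 0.00319). Rps6, which encodes the ribosomal protein S6 itself, ran from 8591 to 11697 on Control and from 12079 to 14737 on Low AA. The log2 fold change of Rps6 was 0.40 with a 95% interval of 0.14 to 0.66 (adjusted p = 0.196 in limma, unadjusted p = 0.00652). For Eef2k and Rps6 the exact two-sided permutation test gave p = 0.0286, the smallest possible. Any gene without overlap gets this value with 4 mice against 4, so it adds nothing to the lack of overlap. Neither gene passed after adjustment over all genes. The rest of the arm overlapped between the diets, with log2 fold changes of -0.17 for Rps6kb2, the second S6 kinase, -0.19 for Pdcd4, an inhibitor of translation that S6 kinase marks for breakdown, and -0.00 for Eif4b, a helper of the cap-bound helicase (adjusted p = 0.705, 0.520 and 0.996, limma).

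**Figure D3:**
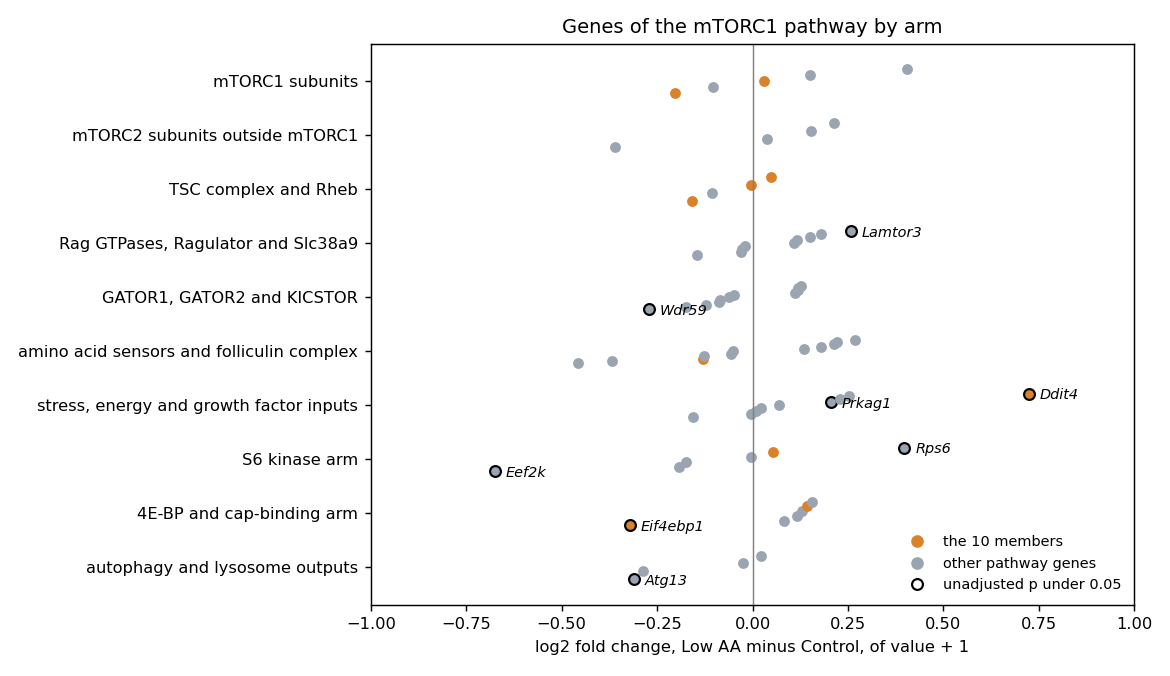
Log2 fold changes, Low AA minus Control, of value + 1 (horizontal axis) for the 69 listed genes of the wider pathway list, in 10 rows by arm, with the 10 members in orange and a black rim where the unadjusted limma p is under 0.05. The rimmed genes are 4 on each side of 0, from Eef2k at -0.67 to Ddit4 at 0.72.

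The wider list of the pathway held 73 genes, among them the 10 members, and 69 were in the table. None passed an adjusted p under 0.05 in limma, and 8 of the 69, or 11.6%, had an unadjusted p under 0.05, against 11.8% of all genes. In each direction there were 4, or 5.80%, against 5.13% of all genes that were higher and 6.70% that were lower on Low AA. The diets did not overlap for 5 genes, 7.25% of the list, 4 of them higher and 1 lower on Low AA, against 6.81% of all genes. The median log2 fold change of the list was 0.02, with 36 genes positive and 33 negative. The shares of the list were thus close to those of the table in each of these counts.

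Beside Ddit4, Eif4ebp1, Eef2k and Rps6, 4 more genes of the list had an unadjusted p under 0.05. Lamtor3, a subunit of the Ragulator that anchors the Rag GTPases to the lysosome, had 0.26 on the log2 scale (adjusted p = 0.400, limma). Wdr59, a subunit of GATOR2, which relieves the brake that GATOR1 puts on the Rags, had -0.27 (adjusted p = 0.422, limma). Prkag1, a gamma subunit of the energy sensor AMPK, had 0.21 and no overlap between the diets, with 831 to 995 on Control and 1022 to 1088 on Low AA (adjusted p = 0.417, limma). Atg13, a partner of the autophagy kinase Ulk1 that mTORC1 holds inactive, had -0.31 (adjusted p = 0.289, limma). The 3 listed Rag GTPase genes did not pass, with log2 fold changes of -0.03 for Rraga, 0.12 for Rragc and 0.18 for Rragd (adjusted p = 0.949, 0.707 and 0.738, limma), and 95% intervals of -0.28 to 0.22, -0.09 to 0.33 and -0.18 to 0.53.

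Ddit4, Eif4ebp1 and Sesn2 are also targets of ATF4, the transcription factor of the amino acid response. Of the 17 genes on the ATF4 list 14 were in the table and none passed after adjustment, with 3 higher and 1 lower on Low AA at an unadjusted p under 0.05 (limma), or 21.4% and 7.14% against 5.13% and 6.70% of all genes. The median log2 fold change of the list was -0.03. The 3 were Ddit4, Asns and Psat1, and the 1 was Eif4ebp1, so that the shared genes did not lie on one side. Psat1 had 12, 45, 20 and 18 in F129, F2212, F7111 and F2110, and 41, 44, 26 and 51 in H1126, H828, H817 and H1315. Every listed gene reached 28 in at least 3 mice, and among the Control mice Psat1 did so only in F2212. Its listing may thus rest on the Low AA mice, where it was higher, which limits its count among the 3. Asns, which encodes asparagine synthetase, had a log2 fold change of 1.30 (adjusted p = 0.321, limma), with values of 138, 355, 122 and 219 in F129, F2212, F7111 and F2110 and of 234, 480, 344 and 1264 in H1126, H828, H817 and H1315. H1315 was the highest of the 8, and without it the log2 fold change of Asns was 0.83. Without F2212, the highest Control mouse for Asns, the fold change rose to 1.5995 and still did not pass (adjusted p = 0.194, limma). Atf4 mRNA had a log2 fold change of -0.12 (adjusted p = 0.768, limma). Nupr1, at 1129 in F2212 and at most 33 in the other mice, went from -1.44 to -0.07 when F2212 was left out. Chac1 then turned from -0.11 to 0.32 and Slc3a2 from -0.05 to 0.02. Psat1 rose from 0.87 to 1.22, Ddit4 fell to 0.44 and Sesn2 fell from -0.06 to -0.35. Eif4ebp1 had -0.24 and no longer an unadjusted p under 0.05 (limma). The median of the ATF4 list without F2212 was not computed. Of 11 glucocorticoid and fasting genes, all listed, none passed after adjustment, and 2 had an unadjusted p under 0.05 (limma), both higher on Low AA, or 18.2% against 5.13% of all genes. These were Igfbp1, which encodes an IGF-binding protein, with a log2 fold change of 1.27, and G6pc, which encodes glucose-6-phosphatase, with 0.71 (adjusted p = 0.416 and 0.282, limma). The list had 10 genes positive and a median log2 fold change of 0.20, against 0.00 over all genes. Without F2212 the log2 fold changes of Tsc22d3 and Foxo3 turned negative, to -0.18 from 0.04 and to -0.20 from 0.12. That of Fkbp5 did too, as given below. That of Tat fell to 0.01 from 0.29, and the other genes of the list kept their sign. Igfbp1 had 0.92 without F2212 and no longer an unadjusted p under 0.05 (limma). Fkbp5, a glucocorticoid receptor target like Ddit4, had a log2 fold change of 0.14 with a 95% interval of -0.49 to 0.77 (adjusted p = 0.900, limma), and -0.12 without F2212.

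Levels were compared between members only after division by exon length, as scaled read counts per kilobase of the exons that GENCODE M21 gives for the gene. On the Control diet Rheb was the highest at 617 ± 19.7 per kilobase (SD, n = 4), above Eif4ebp1 at 462 ± 66.5 in every mouse. Eif4ebp2 followed at 305 ± 84.2 and overlapped Eif4ebp1. Mtor at 205 ± 22.5, Tsc2 at 198 ± 17.6 and Rptor at 179 ± 9.89 were below Eif4ebp2 in every Control mouse. Their ranges over the mice overlapped, but within each Control mouse Rptor lay below both Mtor and Tsc2. The lowest group was Tsc1 at 106 ± 19.1, Ddit4 at 99.1 ± 31.6, Rps6kb1 at 97.3 ± 19.3 and Sesn1 at 93.7 ± 18.6. Their ranges overlapped as well, though Tsc1 lay above Rps6kb1 within each Control mouse. On the Low AA diet the order was the same down to Tsc2 at 205 ± 9.54, and Ddit4, at 157 ± 24.6, then stood beside Rptor at 155 ± 10.6 (SD, n = 4 each, levels per kilobase). The remaining levels were 99.7 ± 5.15 for Rps6kb1, 94.7 ± 11.9 for Tsc1 and 84.5 ± 5.69 for Sesn1.

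Most members also differed between mice of one diet, along a division of the Control mice that was noticed in the values. Control mice F7111 and F2110 both lay above F129 and F2212 for 6 members and both below them for 3, and Ddit4 was the only member that they did not divide in this way. Over all 11784 genes, 50.0% were divided by the same mice. Because the division was picked from these values, the counts of members are not a test of it. The 6 members with higher values in F7111 and F2110 were Mtor, Rptor, Tsc1, Tsc2, Rps6kb1 and Eif4ebp2, all with at least 5784 exon bases, and the 3 with lower values were Rheb, Sesn1 and Eif4ebp1, with at most 3966. Across 11646 genes with a known exon length, the rank correlation of length with the deviation of a mouse from the mean of the 8 mice was -0.29 in F129, -0.52 in F2212, 0.44 in F7111 and 0.24 in F2110. On the Low AA diet it was 0.21 in H1126, 0.27 in H828, 0.10 in H817 and -0.41 in H1315. Both signs thus occurred within each diet, and genes are not independent replicates, so these correlations only describe the libraries.

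**Figure D4:**
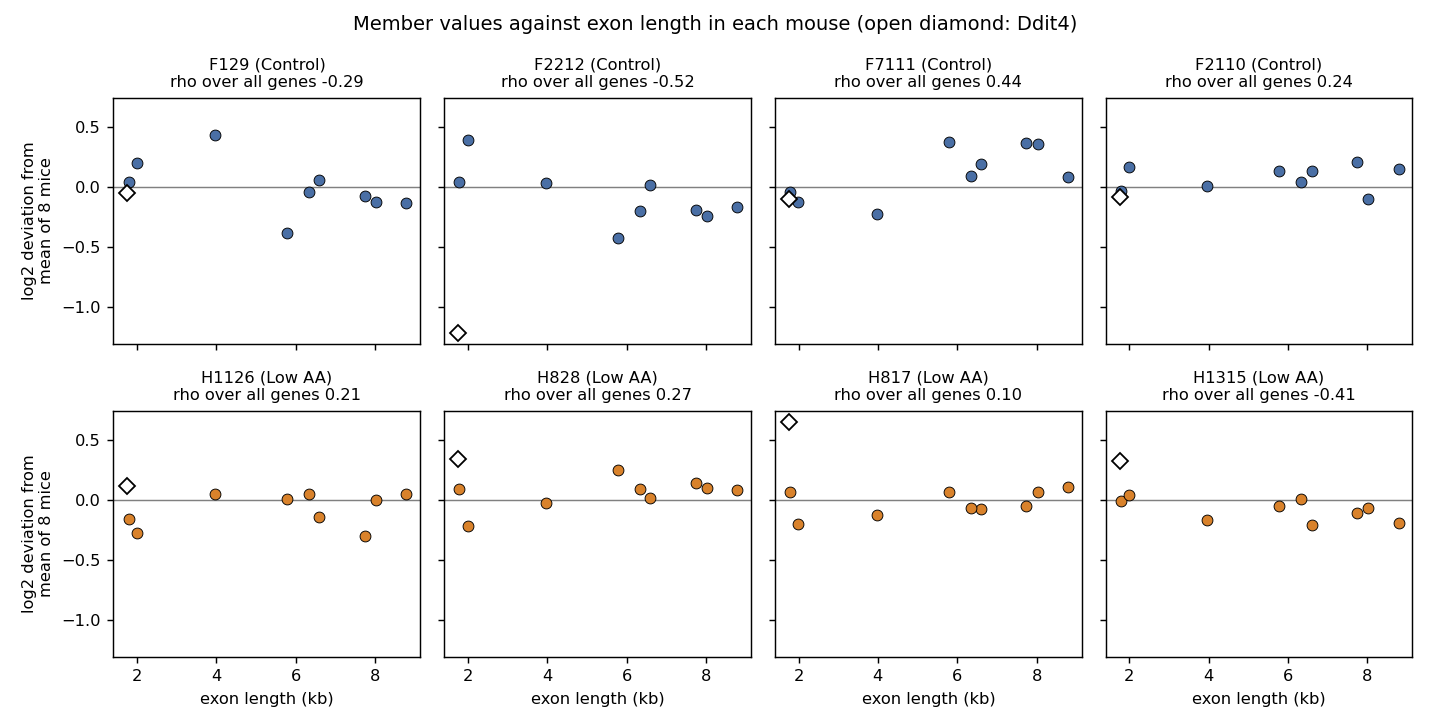
Deviation of each member from its mean over the 8 mice (vertical axis, log2 scale) against exon length in kilobases (horizontal axis), 1 panel per mouse with Control above and Low AA below, and the rank correlation over all genes in each title. Of the 6 members with at least 5784 exon bases, all but Rptor lie below 0 in F129 and F2212 and all lie above 0 in F7111, while Ddit4 (open diamond, 1755 exon bases) lies above 0 in all 4 Low AA mice and below 0 in all 4 Control mice.

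With this trend of length removed from each mouse, a step chosen after seeing the data, 1.10% of the 11646 genes passed an adjusted p under 0.05, against 0.399% of 11784 genes before, and still none of the 10 members did. The standard errors of the long members became smaller, for Mtor 0.08 in place of 0.11 and for Tsc1 0.10 in place of 0.15 on the log2 scale. Eif4ebp1 had a log2 fold change of -0.30 (adjusted p = 0.153, limma), Rptor -0.23 (adjusted p = 0.188, limma) and Ddit4 0.75 (adjusted p = 0.252, limma). Of the wider list 1 gene then passed, Rps6, with a log2 fold change of 0.39 (adjusted p = 0.0395, limma). What part of the differences between the mice the length trend accounts for was not tested.

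For the 3 members with the largest differences, the genes of the whole table most like them over the 8 mice were found by Pearson correlation of log2(value + 1). Nearest to Ddit4 were Fmo2 (r = 0.967, Spearman rho 0.833), Bmi1 (r = 0.959, rho 0.833) and Klhdc10 (r = 0.95, rho 0.905). Without F2212 and H817, the mice farthest from the median of Ddit4, r was 0.679, 0.979 and 0.590, so that for Fmo2 and Klhdc10 much of the likeness rested on these mice. Nearest to Eif4ebp1 were Msto1, Carkd and Clpp, with r of 0.977, 0.975 and 0.974 and rho of 0.976, 0.810 and 0.905, and with r of 0.949, 0.944 and 0.935 without F2212 and F129. Nearest to Rptor were Galnt7, Mia3 and Gnai1, with r of 0.957, 0.954 and 0.942 and rho of 0.970, 1 and 0.905, and with r of 0.896, 0.944 and 0.977 without H1315 and F7111. These genes were picked as the highest of all, so no p is given for them.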

How the data were processed

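The deposited table covers liver RNA of 8 mice, 4 on each diet, each mouse being 1 replicate. Per the labels, stranded poly(A) libraries were made, and the submitters' processing notes name build mm10 and the tools bcl2fastq 1.8.2, STAR 2.5.0a, RSEM 1.2.6, edgeR 3.10.5 and R 3.2.1, without their roles. The authors deposited for each of 11784 genes and each mouse a signal, taken here as a read count scaled between mice and rounded. The scaling is not stated and was read from the near-equal medians. No gene fell below 28 in more than 5 mice, and genes lower than that are not listed, though single values under 28 are. Beside the values stand a signed fold change and an FDR of the authors' own comparison, which were not used. Fold changes on the scale of log2(value + 1) understate the change of low genes.

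Diets were compared by linear models on log2(value + 1) of all genes (limma 3.58.1, R 4.3.3; prior variance following the mean), with Benjamini-Hochberg adjustment at 0.05. No filter was applied. The script was tested on simulated data. Single values were compared with exact two-sided permutation tests (scipy 1.17.1). Positions and exon lengths (the union of exons) came from GENCODE M21 on GRCm38, which mm10 names too, for 11646 genes, and older symbols were matched through RefSeq synonyms. The members and lists were chosen with earlier results of these data known. Besides the members, the genes named are those of the wider list at an unadjusted p under 0.05 or without overlap between diets, Sesn2, Asns, Atf4, Fkbp5, Eif4e, Rraga, Rragc, Mlst8 and Rps6 for reference, and the 3 genes most like each of the 3 members that differed most. Psat1, Nupr1, Chac1, Slc3a2, Eif4ebp3, Igfbp1, G6pc, Tsc22d3, Foxo3, Tat and Rragd were named after their values were seen. So were the other genes of the S6 kinase arm, the markers and the genes sharing exons with members. Alternatives were a pseudocount of 0.1 or of 5, a filter keeping the 8000 highest genes by mean, equal totals or upper quartiles, no trend, robust moderation, vooma weights, each mouse left out, and, added after seeing the data, removal of a lowess trend (span 0.3, statsmodels 0.14.6) on exon length. Figures used matplotlib 3.10.9.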

Additional observations from a re-analysis of the deposited data

Results flagged for a closer look

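In groups of 4 mice, 1 mouse was taken to stand apart when its gap to the nearest other mouse, divided by the range of the group on the log2 scale, was above Dixon's 95% critical value. Of 74 groups examined over the members, the named genes and the ratios, 8 had such a mouse, where about 1 in 20 would by chance. Among the members there was 1 case, Ddit4 on the Control diet, where F2212 lay below the others (gap over range 0.951). F2212 also lay below the other Control mice for Eif4e (0.951) and for Bmi1 (0.956), the latter picked for its likeness to Ddit4, and above them for Lamtor3 (0.831). Control mouse F7111 lay above the others for Wdr59 (0.936). On the Low AA diet H817 lay above the others for Fkbp5 (0.951), H1126 below them for Rragc (0.975), and H1315 above them for the ratio of Eif4ebp1 to Eif4e (0.880). No mouse was removed for these.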

How the results depend on the processing

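No paired analysis was possible because the labels give no replicate numbers that the diets share. No member passed an adjusted p under 0.05 under any of the 17 alternatives, the smallest adjusted p being 0.153. Of 170 log2 fold changes of members under them, 159 kept their sign, and 6 of the 10 members never changed it. The sign of Rheb turned with equal column totals (0.00042), and those of Mtor (-0.016) and Rheb (0.024) with the length correction. With each mouse left out in turn, log2 fold changes ran from -0.020 to 0.10 for Mtor, -0.034 to 0.050 for Rheb, -0.011 to 0.088 for Tsc2, -0.019 to 0.18 for Rps6kb1, -0.35 to 0.29 for Sesn2, -0.12 to 0.43 for Fkbp5 and -0.10 to 0.060 for Rraga, and members at an unadjusted p under 0.05 numbered 1 or 2. Genes called over the whole table, 47, numbered 19 among the 8000 highest genes, 30 with no trend, 128 with the length correction, and 16 to 77 with a mouse left out, the most without F2212 and the fewest without H817. The wider list had 0 calls in every fit but that with the length correction, which called 1, Rps6. The causes were not tested. With a mouse left out, the exact test of a ratio cannot reach p under 0.05, so nothing about the stability of the ratios follows from it. Because depth is unknown, the precision of low genes rests on the spread between mice alone.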
